A study of Mus musculus with 18 samples.

Results

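The genes described here are 10 chemokines and cytokines that smooth muscle cells of the arterial wall can secrete: Ccl2, Ccl7, Ccl5, Cxcl1, Cxcl10, Cxcl12, Cx3cl1, Il6, Csf1 and Lif. They were chosen by name from the 57180 genes of the count table, and all 10 were among the 15832 genes tested. RNA was sequenced from smooth muscle cells isolated from the thoracic aorta of C57BL/6 mice and cultured, in 6 groups of 3 libraries. Unstimulated cells carried a scramble siRNA or an siRNA against Itgav (written ITGAV in the labels), which encodes the integrin chain αV, and the same pair of siRNAs was used in cells given TGF-β and in cells given PDGF-BB (PDGFBB in the labels). Every group had therefore received an siRNA, and the labels name no untransfected group. Neither doses, times and animal age nor the siRNA sequences are stated in the sources used here. The labels name 1 siRNA treatment against Itgav. An effect through Itgav therefore cannot be told apart from any other effect of that siRNA, through another target or not. Nothing in the labels says that the replicates came from separate cultures, and the p-values therefore reflect library-to-library spread that could be technical.

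Chemokines are small secreted proteins that draw leukocytes along a gradient by binding G-protein-coupled receptors. Ccl2 and Ccl7 attract monocytes through Ccr2, Ccl5 attracts T cells and monocytes through receptors that include Ccr1 and Ccr3, Cxcl1 attracts neutrophils through Cxcr2, Cxcl10 attracts activated T cells through Cxcr3, Cxcl12 acts through Cxcr4, and Cx3cl1 is a membrane-bound chemokine that can be shed. Il6 and Lif are cytokines of one family that signal through the shared receptor chain gp130 (Il6st) to the transcription factor Stat3, and Csf1 is the growth factor of macrophages.

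The libraries held 17705072 to 21592916 estimated counts. Itgav stood at 300.2 to 553 CPM (library-scaled counts, with totals adjusted by the trimmed mean of M-values, TMM) in the 9 scramble libraries and at 14.1 to 29.7 CPM in the 9 siRNA libraries. The 8 smooth muscle markers were all tested and summed to 375 to 7168 CPM in a library, highest under TGF-β and lowest under PDGF-BB with the siRNA. Under TGF-β with the scramble siRNA this sum was mostly Acta2 (4228 CPM) and Tagln (2200.2 CPM). In scramble cells Des went the other way, from 8.57 to 2.32 CPM with TGF-β and to 15.9 CPM with PDGF-BB. In siRNA cells TGF-β went with less Des, Myh11 (20 to 7.96 CPM) and Lmod1 (90.3 to 54 CPM) and with more of the other markers. Of the 12 macrophage markers only 5 passed the low-count filter, and Adgre1, Itgam, Tyrobp, Fcer1g, C1qa, C1qb and C1qc stayed at or under 0.252 CPM in every library. The 5 that passed were Ptprc, at most 1.02 CPM in a library, Lyz2 (3.93 to 12 CPM), Cd68 (1.13 to 11.4), Cd14 (1.77 to 6.76) and Csf1r (1.44 to 5.86). The 12 summed to 17.7 to 20.8 CPM in unstimulated scramble cells, 9.37 to 10.8 CPM with TGF-β and 24.1 to 26.1 CPM with PDGF-BB. Ccl2 and Ccl7 also showed that order in scramble cells. With the siRNA the sums were 19.6 to 21, 12.1 to 15 and 24.9 to 27 CPM. Not all markers followed the sum. In scramble cells its rise with PDGF-BB came mainly through Cd68 (2.09 to 9.41 CPM). Csf1r, Cd14 and Ptprc were also higher there, while Lyz2 was lower (9.71 to 5.88 CPM). None of 8 lymphocyte markers passed that filter, their sum was at most 0.479 CPM, and Cd3e was at 0 in all 18 libraries. Markers of adventitial fibroblasts summed to 506 to 543 CPM in unstimulated scramble cells and to 101 to 105 CPM with TGF-β, mostly through Ly6a, and mesothelial markers to 156 to 167 and 63.9 to 66.3 CPM in the same groups. Endothelial markers summed to 56.5 to 108 CPM. These sums moved with some of the results that follow, and their part in them was not tested. In bulk RNA, fewer cells of a type and less RNA per cell cannot be told apart. A gene was called where the quasi-likelihood test of edgeR, fitted to all 18 libraries, gave a Benjamini-Hochberg adjusted p under 0.05. Errors of log2 fold changes are standard errors.

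Of the members, 4 promoters are shown, each running from 250 bases before to 50 after the start of the RefSeq transcript (GRCm38.p6). They belong to the chemokine with the largest rise after Itgav siRNA (Cxcl10), the chemokine with the largest fall under TGF-β in cells with the siRNA (Cxcl1), the cytokine that TGF-β raised most (Il6) and the most abundant member (Cxcl12). Capitals mark matches to 4 motifs searched on both strands: the interferon-stimulated response core GAAANNGAA, the NF-κB site, the AP-1 site TGANTCA and the STAT site TTCNNNGAA. The Cxcl10 window lies at chr5:92348840-92349139 on the minus strand, Cxcl1 at chr5:90890995-90891294, Il6 at chr5:30012864-30013163 and Cxcl12 at chr6:117168285-117168584, all on the plus strand.
Cxcl10: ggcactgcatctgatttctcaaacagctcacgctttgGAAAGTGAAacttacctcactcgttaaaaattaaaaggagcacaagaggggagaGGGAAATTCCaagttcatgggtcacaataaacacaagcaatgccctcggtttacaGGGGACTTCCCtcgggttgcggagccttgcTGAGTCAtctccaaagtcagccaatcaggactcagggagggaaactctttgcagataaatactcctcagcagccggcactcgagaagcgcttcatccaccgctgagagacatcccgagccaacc
Cxcl1: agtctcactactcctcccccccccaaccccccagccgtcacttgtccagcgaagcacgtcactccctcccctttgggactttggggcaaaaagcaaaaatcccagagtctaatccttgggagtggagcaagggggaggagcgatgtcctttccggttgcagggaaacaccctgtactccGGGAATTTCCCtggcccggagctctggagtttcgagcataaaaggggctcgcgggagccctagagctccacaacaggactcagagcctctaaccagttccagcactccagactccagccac
Il6: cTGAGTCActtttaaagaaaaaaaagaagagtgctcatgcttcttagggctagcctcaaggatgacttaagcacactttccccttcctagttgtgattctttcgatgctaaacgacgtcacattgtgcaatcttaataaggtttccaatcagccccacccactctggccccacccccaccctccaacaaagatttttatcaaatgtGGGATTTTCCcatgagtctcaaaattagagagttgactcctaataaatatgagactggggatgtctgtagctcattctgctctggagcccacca
Cxcl12: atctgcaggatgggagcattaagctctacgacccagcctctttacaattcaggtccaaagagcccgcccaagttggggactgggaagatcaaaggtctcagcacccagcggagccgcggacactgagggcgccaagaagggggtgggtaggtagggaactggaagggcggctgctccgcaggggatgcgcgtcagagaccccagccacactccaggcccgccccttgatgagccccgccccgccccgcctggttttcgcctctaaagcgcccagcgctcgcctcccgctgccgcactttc

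The Cxcl10 window held the interferon-stimulated response core GAAAGTGAA at -213 to -205, counted from the transcript start, an NF-κB site at -159 to -150, a pair of overlapping NF-κB sites at -104 to -94, and an AP-1 site at -74 to -68. Cxcl1 held one stretch, at -71 to -61, that matched the NF-κB site on both strands. Il6 held an NF-κB site at -44 to -35 and an AP-1 site at -249 to -243, and the Cxcl12 window held no match. The promoter table held 7 of the 10 members, all but Ccl2, Ccl7 and Ccl5. Of the other three, Csf1 had an NF-κB site at -154 to -145 on the opposite strand, Lif had one at -178 to -169 with an AP-1 site at -228 to -222, and Cx3cl1 had no match. Among 32851 promoters of the same length, 8.56% held the interferon core, 8.46% the NF-κB site, 7.81% the AP-1 site and 8.3% the STAT site. A match is a description of the letters and not a site shown to be bound.

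The members fell into a very abundant pair and a range of scarcer genes. Per kilobase of exon, Cxcl12 was the highest of the 10 in each of the 6 groups, at 439 RPKM (CPM divided by exon length in kilobases) in unstimulated scramble cells and between 284 and 686 RPKM in group means. Csf1 came next in each group, at 265 RPKM in unstimulated scramble cells and between 121 and 265. In unstimulated scramble cells Ccl2 followed at 20.9 RPKM, then Cx3cl1 at 6.6, Ccl7 at 4.87, Il6 at 3.78 and Lif at 2.31 RPKM. Cxcl1 (0.244 RPKM), Cxcl10 (0.184) and Ccl5 (0.132) rested on few counts there. With Itgav siRNA alone the order changed, and Ccl7 came after Csf1 at 68.8 RPKM, ahead of Ccl2 at 53.9 RPKM. Under TGF-β it was Il6 that came after Csf1, at 29 RPKM with the scramble siRNA and 21.9 RPKM with the Itgav siRNA.

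**Figure D1:**
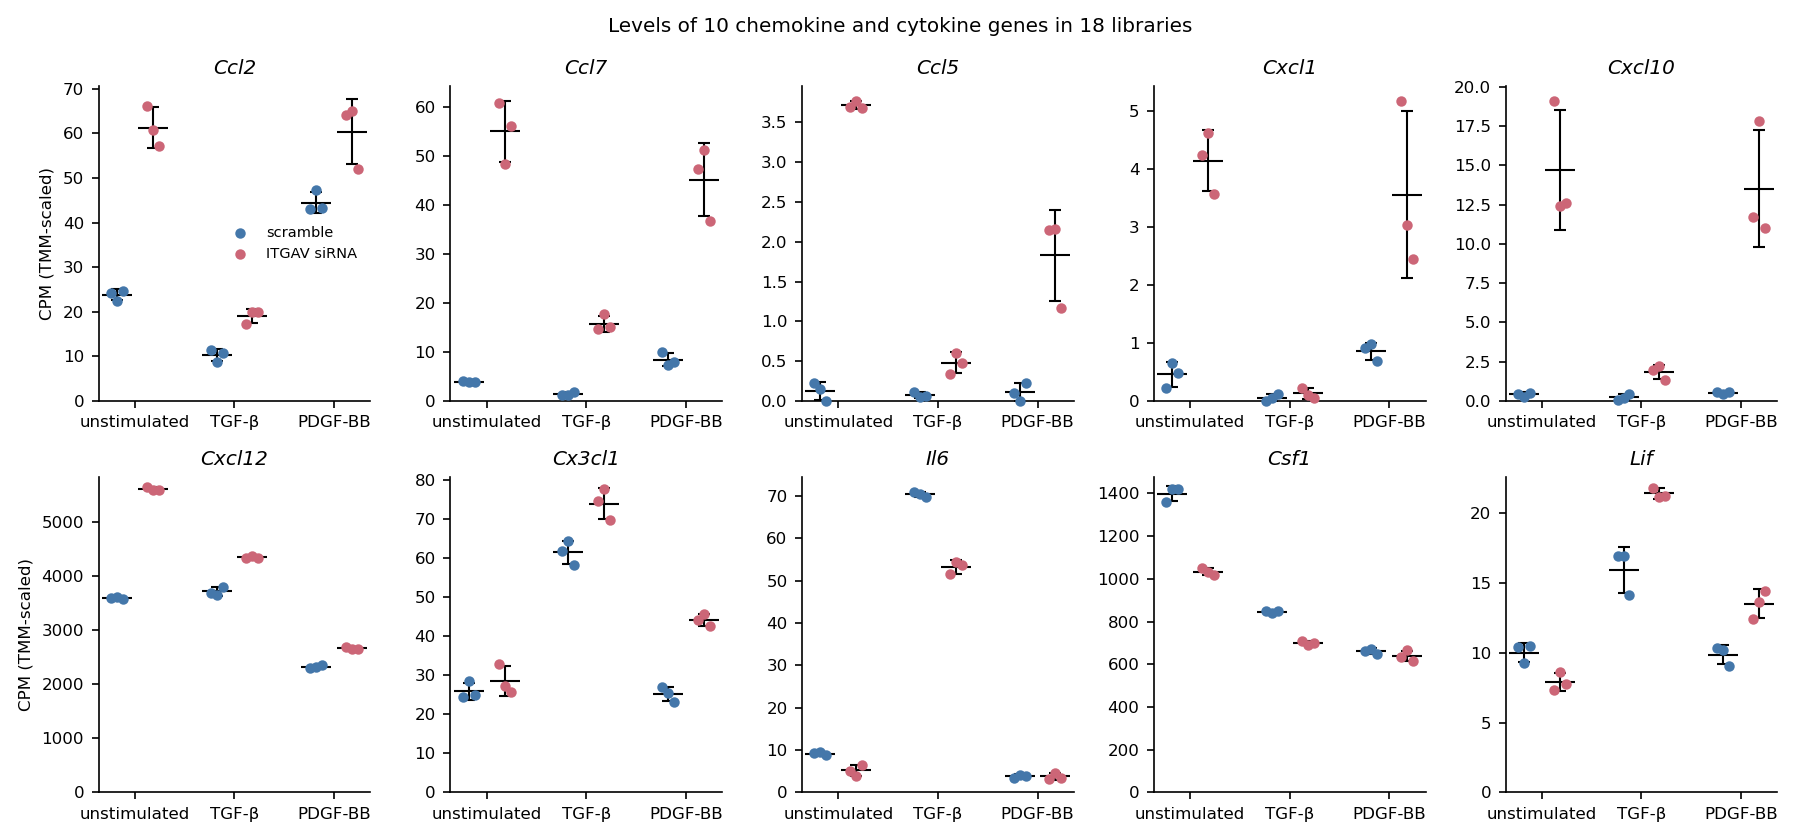
Level of each of the 10 genes in CPM (linear axis from 0) in 3 media. Points are single libraries, blue for scramble and red for Itgav siRNA, and the black bar and whiskers are the mean and SD of 3 libraries. Ccl2, Ccl7, Ccl5, Cxcl1 and Cxcl10 are highest with the siRNA outside TGF-β, and Il6, Cx3cl1 and Lif are highest under TGF-β.

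TGF-β in scramble cells split the members. Il6, Cx3cl1 and Lif rose, Ccl2, Ccl7, Cxcl1 and Csf1 fell, and Ccl5, Cxcl10 and Cxcl12 did not pass. That is 3 of 10 higher and 4 of 10 lower, beside 23.4% and 24.8% of all genes tested, and the median log2 fold change of the members was -0.72 beside -0.01 over all genes. PDGF-BB in scramble cells raised Ccl2 and Ccl7 and lowered Cxcl12, Il6 and Csf1, and the other five did not pass. Here 16.9% of all genes were higher and 19.2% lower, and the members' median was -0.04 beside 0.01. Itgav siRNA in unstimulated cells raised 6 members, all of them chemokines (Ccl2, Ccl7, Ccl5, Cxcl1, Cxcl10 and Cxcl12), and lowered the cytokines Il6, Csf1 and Lif, while Cx3cl1 did not pass. The background was 25.9% higher and 27.5% lower, and the medians were 1 for the members and 0.01 for all genes. Under TGF-β the siRNA raised 7 members and lowered 2, with 24.1% and 24.3% of all genes called and a members' median of 0.65. Under PDGF-BB it raised 8, and Il6 and Csf1 did not pass, with 29.4% of genes higher and 29.9% lower and a members' median of 0.63. The marker sums of other cell types differed along with the siRNA too. In unstimulated cells the smooth muscle markers summed to 2081 to 2131 CPM with the scramble and 991 to 1109 CPM with the Itgav siRNA. The mesothelial markers summed to 156 to 167 and 95 to 96.9 CPM, and the adventitial fibroblast markers to 506 to 543 and 626 to 686 CPM. Most of the fibroblast sum was Ly6a (means of 424 and 569.8 CPM). Cd34 was lower with the siRNA (77.3 and 44.7 CPM), and the other markers of that list were higher. Smooth muscle and mesothelial sums were also lower with the siRNA in both stimulated media. Of the mesothelial markers, Upk1b, Upk3b, Krt19 and Msln were lower with the siRNA in each medium. Krt18 (2.08 and 4.36 CPM unstimulated) and Wt1 (0.662 and 0.887 CPM) were higher with it in each. The fibroblast sum was lower with it under TGF-β (76.7 to 81.5 CPM) and higher under PDGF-BB (647 to 795 against 633 to 645 CPM). Under TGF-β Ly6a (65.3 and 43.9 CPM), Cd34 (27.3 and 13.1 CPM) and Scara5 were lower with the siRNA, while Pdgfra, Dpt, Lum, Pi16 and Clec3b were higher. The comparisons within an siRNA or a medium share libraries, so their counts are not independent.

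In cells with the Itgav siRNA, TGF-β moved all 10 members past the threshold, 3 of them higher (Il6, Cx3cl1 and Lif) and 7 lower, beside 27.9% and 29.6% of all genes. PDGF-BB in these cells raised Cx3cl1 and Lif and lowered Ccl7, Ccl5, Cxcl12, Il6 and Csf1, beside 17.2% and 19.2% of all genes. That last count of 7 called members rests on single libraries. It fell to 4 without unstimulated Itgav siRNA replicate 1, without replicate 3 of that group, or without PDGF-BB Itgav siRNA replicate 3. Ccl5 passed the low-count filter through siRNA libraries alone, since none of the 9 scramble libraries reached the minimum of 0.519 CPM. Cxcl10 reached it in 3 scramble libraries and Cxcl1 in 4, so that the counts of siRNA effects hold genes that only the siRNA made testable or nearly so.

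The CC chemokines Ccl2 and Ccl7 lie on chromosome 11 (GENCODE M21, GRCm38), Ccl2 (ENSMUSG00000035385) at 82035571 to 82037453 and Ccl7 (ENSMUSG00000035373) at 82045712 to 82047525, both on the plus strand. They are 8.26 kb apart with no protein-coding gene between them. Ccl2 stood at 24.3, 22.5 and 24.7 CPM in unstimulated scramble libraries, at 11.4, 8.82 and 10.8 CPM with TGF-β and at 43.1, 47.2 and 43.3 CPM with PDGF-BB. The 3 media did not overlap: TGF-β lowered Ccl2 2.31-fold (log2 fold change -1.21 ± 0.11, edgeR adjusted p = 3e-09) and PDGF-BB raised it 1.87-fold (0.90 ± 0.089, 4.6e-08). With the Itgav siRNA the libraries held 66.2, 60.7 and 57.1 CPM unstimulated, 17.2, 19.9 and 20 CPM with TGF-β and 64.1, 65 and 52 CPM with PDGF-BB. Each siRNA group lay above the scramble group of the same medium. The rise was 2.57-fold unstimulated (1.36 ± 0.088, edgeR adjusted p = 1.8e-11), 1.85-fold under TGF-β and 1.36-fold under PDGF-BB. It was smaller in both stimulated media, with a difference of -0.48 ± 0.14 on the log2 scale under TGF-β (edgeR adjusted p = 0.018) and of -0.92 ± 0.12 under PDGF-BB (edgeR adjusted p = 1.6e-05). The first of these differences was no longer called without TGF-β scramble replicate 1 (-0.41, edgeR adjusted p = 0.068). In siRNA cells PDGF-BB left Ccl2 within the spread (-0.02 ± 0.082, edgeR adjusted p = 0.87), and the libraries of the 2 groups overlapped.

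Ccl7 followed the same order of media from a lower start. Its scramble libraries held 3.99, 3.81 and 3.92 CPM unstimulated, 1.28, 1.29 and 1.91 CPM with TGF-β and 9.9, 7.41 and 7.86 CPM with PDGF-BB. TGF-β lowered it 2.62-fold (-1.39 ± 0.24, edgeR adjusted p = 5.1e-05) and PDGF-BB raised it 2.14-fold (1.10 ± 0.17, 2e-05). Libraries with the Itgav siRNA held 60.8, 48.4 and 56.1 CPM unstimulated, 14.6, 17.7 and 15.2 CPM with TGF-β and 47.4, 51.2 and 36.8 CPM with PDGF-BB. Every siRNA library, that under TGF-β included, was above every scramble library of any medium. The rise was 14.1-fold unstimulated (3.81 ± 0.14, edgeR adjusted p = 1.8e-15), 10.6-fold under TGF-β (3.41 ± 0.19) and 5.39-fold under PDGF-BB (2.43 ± 0.13). The effect under PDGF-BB was smaller than that in unstimulated cells (difference -1.38 ± 0.2, edgeR adjusted p = 4.5e-05), whereas under TGF-β the difference did not pass (-0.41 ± 0.29, edgeR adjusted p = 0.34). In siRNA cells TGF-β lowered Ccl7 3.47-fold. The small fall with PDGF-BB there (-0.28 ± 0.11, edgeR adjusted p = 0.041) came from overlapping groups and was lost with DESeq2 (0.07), with a filter at a mean of 1 CPM (0.053) and with DESeq2's size factors (0.052). It was lost too without unstimulated Itgav siRNA replicate 1 (-0.21, edgeR adjusted p = 0.19) or 3 (-0.27, 0.1) and without PDGF-BB Itgav siRNA replicate 3 (-0.16, 0.25).

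Ccl5 (ENSMUSG00000035042), at 83525778 to 83530518 on the minus strand of the same chromosome, was nearly absent from scramble cells. Unstimulated scramble libraries held 0.229, 0.152 and 0 CPM, TGF-β libraries 0.116, 0.0538 and 0.0579 CPM and PDGF-BB libraries 0.101, 0 and 0.231 CPM. These are 8, 4 and 7 counts over the 3 libraries of each group, so a response to either stimulus in scramble cells was not detectable at this depth (edgeR adjusted p = 0.55 and 0.91). With the siRNA the unstimulated libraries held 3.7, 3.77 and 3.68 CPM, TGF-β libraries 0.343, 0.607 and 0.481 CPM and PDGF-BB libraries 2.15, 2.16 and 1.17 CPM. All 9 siRNA libraries were above all 9 scramble libraries. The fitted rise was 4.79 ± 0.49 on the log2 scale in unstimulated cells (edgeR adjusted p = 3.2e-08), 2.57 ± 0.74 under TGF-β (0.0066) and 3.93 ± 0.53 under PDGF-BB (1.5e-06), sizes that depend on the few scramble counts. Neither difference between media passed (-2.22 ± 1.2 for TGF-β and -0.86 ± 0.95 for PDGF-BB, edgeR adjusted p = 0.2 and 0.58). Within siRNA cells TGF-β lowered Ccl5 7.68-fold (-2.94 ± 0.4, edgeR adjusted p = 1.7e-06). PDGF-BB lowered it 2.02-fold (-1.01 ± 0.33, edgeR adjusted p = 0.021). The PDGF-BB call was lost without unstimulated Itgav siRNA replicate 1 (-1.02, edgeR adjusted p = 0.052), 2 (-1.01, 0.055) or 3 (-1.02, 0.052) and without PDGF-BB Itgav siRNA replicate 3 (-0.79, 0.11).

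The CXC chemokine Cxcl1 (ENSMUSG00000029380, chromosome 5, 90891241 to 90893115, plus strand) was lowest under TGF-β. Scramble libraries held 0.229, 0.66 and 0.484 CPM unstimulated, 0, 0.0538 and 0.116 CPM with TGF-β and 0.909, 0.978 and 0.694 CPM with PDGF-BB. TGF-β thus took the group from 28 counts to 3, a ratio of 7.97 with a 95% exact interval of 2.46 to 41 that covers counting error only (edgeR adjusted p = 0.0031). The rise with PDGF-BB did not pass (0.91 ± 0.43, edgeR adjusted p = 0.1), although the 2 groups did not overlap. Cxcl1 in siRNA libraries stood at 4.24, 4.62 and 3.58 CPM unstimulated, 0.229, 0.11 and 0.0535 CPM with TGF-β and 5.18, 3.04 and 2.45 CPM with PDGF-BB. The siRNA raised Cxcl1 9.06-fold in unstimulated cells (3.18 ± 0.36, edgeR adjusted p = 1.3e-07) and 4.13-fold under PDGF-BB (2.05 ± 0.33, 1.3e-05). Under TGF-β the siRNA group held 7 counts and the scramble group 3 (ratio 2.28, interval 0.521 to 13.7), and a rise was not detectable (edgeR adjusted p = 0.38). Neither difference between media passed (-2.07 ± 1.3 and -1.13 ± 0.51, edgeR adjusted p = 0.29 and 0.13), although that for PDGF-BB was called without PDGF-BB Itgav siRNA replicate 1 (-1.51, edgeR adjusted p = 0.033). In siRNA cells TGF-β lowered Cxcl1 30.6-fold (-4.94 ± 0.46, edgeR adjusted p = 3.9e-09), a size exceeded among the members, in the 7 comparisons of 2 groups, only by the siRNA rise of Cxcl10 in unstimulated cells. The NF-κB stretch of its promoter is printed above.

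Cxcl10 (ENSMUSG00000034855, chromosome 5, 92346638 to 92348889, minus strand) is a classical interferon-induced chemokine. Scramble libraries held 0.458, 0.254 and 0.533 CPM unstimulated, 0.058, 0.215 and 0.463 CPM with TGF-β and 0.555, 0.463 and 0.555 CPM with PDGF-BB, and the 3 groups overlapped. Neither stimulus passed in scramble cells (-0.76 ± 0.63 for TGF-β and 0.33 ± 0.52 for PDGF-BB, edgeR adjusted p = 0.35 and 0.66). With the siRNA the libraries held 19.1, 12.4 and 12.6 CPM unstimulated, 2, 2.21 and 1.34 CPM with TGF-β and 11.7, 17.8 and 11 CPM with PDGF-BB. Every siRNA library was above every scramble library. The rise was 34.7-fold unstimulated (5.12 ± 0.31, edgeR adjusted p = 5.1e-12), 7.36-fold under TGF-β (2.88 ± 0.48) and 25.4-fold under PDGF-BB (4.67 ± 0.3). In siRNA cells TGF-β lowered Cxcl10 7.95-fold (-2.99 ± 0.25, edgeR adjusted p = 5.4e-10), and PDGF-BB left it within the spread (-0.12 ± 0.19, 0.66). The siRNA effect was smaller under TGF-β than in unstimulated cells (difference -2.23 ± 0.77, edgeR adjusted p = 0.041). That difference was lost without unstimulated scramble replicate 1 (-2.31, edgeR adjusted p = 0.055) or 2 (-2.01, 0.079), without TGF-β scramble replicate 2 (-2.33, 0.081) or 3 (-1.46, 0.37) and without TGF-β Itgav siRNA replicate 3 (-2.05, 0.067). Exons of Cxcl10 share 133 bases with Art3 on the opposite strand, and no source used here gives the strand used for counting. Art3 held 101 to 120 counts a library in unstimulated scramble cells and 30 to 46 with the siRNA, lower where Cxcl10 was higher. With TGF-β it held 57 to 65 and 27 to 42 counts, and with PDGF-BB 108 to 148 and 81 to 95. Between media the 2 genes did not mirror each other. In siRNA cells TGF-β lowered Cxcl10, while the Art3 counts overlapped those of unstimulated cells.

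Cxcl12 (ENSMUSG00000061353, chromosome 6, 117168535 to 117181367, plus strand), which retains leukocytes and progenitor cells that carry Cxcr4, was the most abundant member. Scramble libraries held 3587, 3609 and 3575 CPM unstimulated, 3684, 3655 and 3799 CPM with TGF-β and 2295, 2310 and 2348 CPM with PDGF-BB. PDGF-BB lowered it 1.55-fold (-0.63 ± 0.025, edgeR adjusted p = 1.6e-14). The TGF-β libraries lay just above the unstimulated ones without overlap, but the difference did not pass (0.05 ± 0.025, edgeR adjusted p = 0.12). It was called with DESeq2 (0.06, adjusted p = 0.021) and with a filter at a mean of 1 CPM (0.06, edgeR adjusted p = 0.043). In siRNA libraries Cxcl12 stood at 5650.2, 5585 and 5594 CPM unstimulated, 4337, 4372 and 4337 CPM with TGF-β and 2689, 2655 and 2650.3 CPM with PDGF-BB. Each siRNA group was above its scramble group, by 1.56-fold unstimulated (0.64 ± 0.025, edgeR adjusted p = 5.5e-15), 1.17-fold under TGF-β and 1.15-fold under PDGF-BB. The effect was smaller in both stimulated media, with differences of -0.42 ± 0.036 under TGF-β (edgeR adjusted p = 1.7e-08) and -0.44 ± 0.036 under PDGF-BB (2e-08). In siRNA cells both stimuli lowered Cxcl12, TGF-β 1.29-fold and PDGF-BB 2.1-fold.

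Cx3cl1 (ENSMUSG00000031778, chromosome 8, 94772009 to 94782427, plus strand), the chemokine that is made as a membrane protein and cut free by Adam10 and Adam17, was one of the members that rose under TGF-β. Scramble libraries held 24.5, 28.5 and 24.9 CPM unstimulated, 61.8, 64.2 and 58.2 CPM with TGF-β and 26.9, 25.4 and 23.2 CPM with PDGF-BB. TGF-β raised it 2.37-fold (1.24 ± 0.08, edgeR adjusted p = 1.4e-11), and PDGF-BB left it within the spread (-0.04 ± 0.085, 0.73). With the siRNA the libraries held 32.9, 27.1 and 25.7 CPM unstimulated, 74.6, 77.5 and 69.7 CPM with TGF-β and 44.1, 45.7 and 42.5 CPM with PDGF-BB. The siRNA and scramble groups overlapped in unstimulated cells (0.14 ± 0.084, edgeR adjusted p = 0.17) and were apart in both stimulated media. The siRNA effect was 1.2-fold under TGF-β (0.27 ± 0.075, edgeR adjusted p = 0.005) and 1.76-fold under PDGF-BB (0.81 ± 0.081, 1.8e-08). It exceeded the effect in unstimulated cells by 0.67 ± 0.12 under PDGF-BB (edgeR adjusted p = 0.00035), and by an amount that did not pass under TGF-β (0.13 ± 0.11, 0.46). Of the proteases, the siRNA lowered Adam17 in unstimulated cells (-0.72 ± 0.061) and under TGF-β (-0.96 ± 0.063) and raised Adam10 under PDGF-BB (0.58 ± 0.061).

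**Figure D2:**
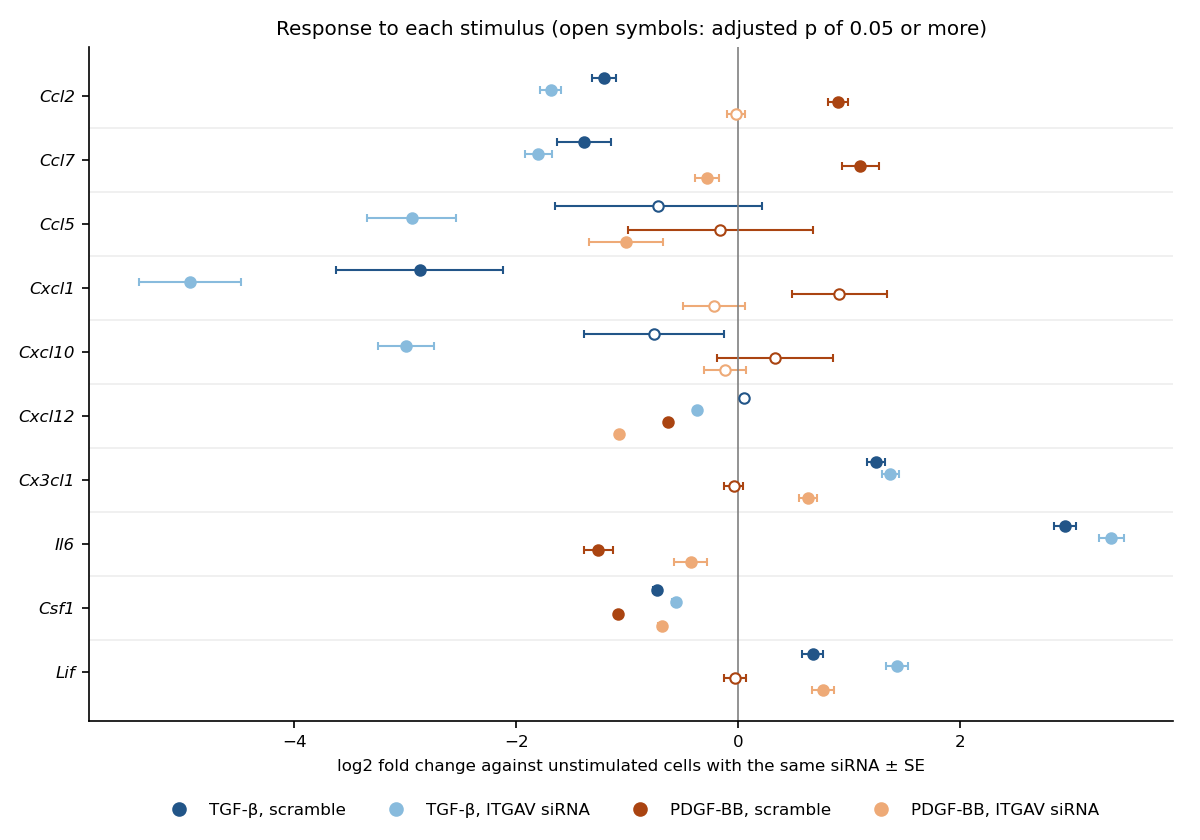
Log2 fold change with its standard error for each gene, TGF-β (blue) and PDGF-BB (orange) against unstimulated cells with the same siRNA, dark for scramble and light for Itgav siRNA cells. Filled symbols passed an adjusted p of 0.05. Il6 lies at 2.94 and 3.36 under TGF-β, and Cxcl1 at -4.94 in siRNA cells.

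Il6 (ENSMUSG00000025746, chromosome 5, 30013114 to 30019981, plus strand) gave the largest rise with a stimulus of the 10. Scramble libraries held 9.3, 9.49 and 8.72 CPM unstimulated, 70.9, 70.4 and 69.8 CPM with TGF-β and 3.33, 4.22 and 3.88 CPM with PDGF-BB. TGF-β raised Il6 7.67-fold (2.94 ± 0.099, edgeR adjusted p = 2e-16) and PDGF-BB lowered it 2.4-fold (-1.26 ± 0.13, 1.4e-07). With the siRNA the libraries held 5.15, 3.97 and 6.43 CPM unstimulated, 51.5, 54.5 and 53.7 CPM with TGF-β and 3.28, 4.69 and 3.46 CPM with PDGF-BB. Il6 thus fell with the siRNA, 1.77-fold in unstimulated cells (-0.82 ± 0.13, edgeR adjusted p = 1.3e-05) and 1.32-fold under TGF-β (-0.40 ± 0.084, 0.00039). Under PDGF-BB the groups overlapped (0.01 ± 0.16, edgeR adjusted p = 0.97), and the siRNA effect differed from that in unstimulated cells by 0.83 ± 0.2 (0.0067). The difference between TGF-β and unstimulated cells did not pass (0.42 ± 0.15, edgeR adjusted p = 0.052). It was called with DESeq2 (0.43, adjusted p = 0.023), with DESeq2's size factors (0.43, 0.049), with no low-count filter (0.41, 0.03), at a mean of 1 CPM (0.42, 0.046), in a fit of the compared groups only (0.42, 0.028) and without unstimulated Itgav siRNA replicate 3 (0.60, 0.0075). In siRNA cells TGF-β raised Il6 10.3-fold, and PDGF-BB lowered it 1.35-fold (-0.43 ± 0.15, edgeR adjusted p = 0.027). The latter call was lost in a fit of the compared groups only (0.1), without unstimulated Itgav siRNA replicate 1 (-0.44, edgeR adjusted p = 0.056) or 3 (-0.25, 0.23) and without PDGF-BB Itgav siRNA replicate 1 (-0.33, 0.12) or 3 (-0.37, 0.1).

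Lif (ENSMUSG00000034394, chromosome 11, 4257557 to 4272514, plus strand), which shares the gp130 receptor chain with Il6, had a smaller rise under TGF-β than Il6 and another pattern with the siRNA. Scramble libraries held 10.4, 9.28 and 10.5 CPM unstimulated, 16.9, 16.9 and 14.1 CPM with TGF-β and 10.3, 10.2 and 9.06 CPM with PDGF-BB. TGF-β raised it 1.59-fold (0.67 ± 0.094, edgeR adjusted p = 3.8e-06), and PDGF-BB left it within the spread (-0.03 ± 0.098, 0.84). Lif in siRNA libraries stood at 7.35, 8.64 and 7.78 CPM unstimulated, 21.8, 21.1 and 21.2 CPM with TGF-β and 12.4, 13.6 and 14.4 CPM with PDGF-BB. The siRNA groups were below the scramble group in unstimulated cells and above it in both stimulated media, with no overlap in any of the 3. The siRNA effect was -0.34 ± 0.1 in unstimulated cells (edgeR adjusted p = 0.0066), 0.42 ± 0.089 under TGF-β (0.0004) and 0.45 ± 0.095 under PDGF-BB (0.00032). The differences of 0.77 ± 0.13 and 0.79 ± 0.14 between media both passed (edgeR adjusted p = 0.00019 and 0.00037). Within siRNA cells TGF-β raised Lif 2.7-fold and PDGF-BB raised it 1.7-fold.

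Csf1 (ENSMUSG00000014599, chromosome 3, 107741048 to 107760469, minus strand), on which macrophages depend for survival, was highest in the unstimulated scramble libraries and lower in every other group. Scramble libraries held 1358, 1419 and 1418 CPM unstimulated, 847, 842 and 847 CPM with TGF-β and 664, 673 and 647 CPM with PDGF-BB. It was the member that both stimuli lowered in cells of both siRNAs, 1.65-fold with TGF-β (-0.73 ± 0.034, edgeR adjusted p = 6e-14) and 2.11-fold with PDGF-BB (-1.08 ± 0.034, 3.3e-16) in scramble cells. Csf1 in siRNA libraries stood at 1049.6, 1031 and 1019 CPM unstimulated, 710.1, 689.9 and 701 CPM with TGF-β and 635, 666 and 617 CPM with PDGF-BB. The siRNA lowered Csf1 1.35-fold in unstimulated cells (-0.44 ± 0.034, edgeR adjusted p = 3.6e-10) and 1.21-fold under TGF-β (-0.27 ± 0.034, 6.6e-07). Under PDGF-BB the groups overlapped and the effect did not pass (-0.05 ± 0.034, edgeR adjusted p = 0.22). The siRNA effect was less negative under PDGF-BB by 0.39 ± 0.048 (edgeR adjusted p = 7.5e-06) and under TGF-β by 0.16 ± 0.048 (0.015). The smaller of these differences was lost with no low-count filter (0.086) and without unstimulated scramble replicate 2 (0.14, edgeR adjusted p = 0.061) or 3 (0.14, 0.063), unstimulated Itgav siRNA replicate 2 (0.15, 0.05) or 3 (0.14, 0.061) or TGF-β Itgav siRNA replicate 1 (0.14, 0.062).

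**Figure D3:**
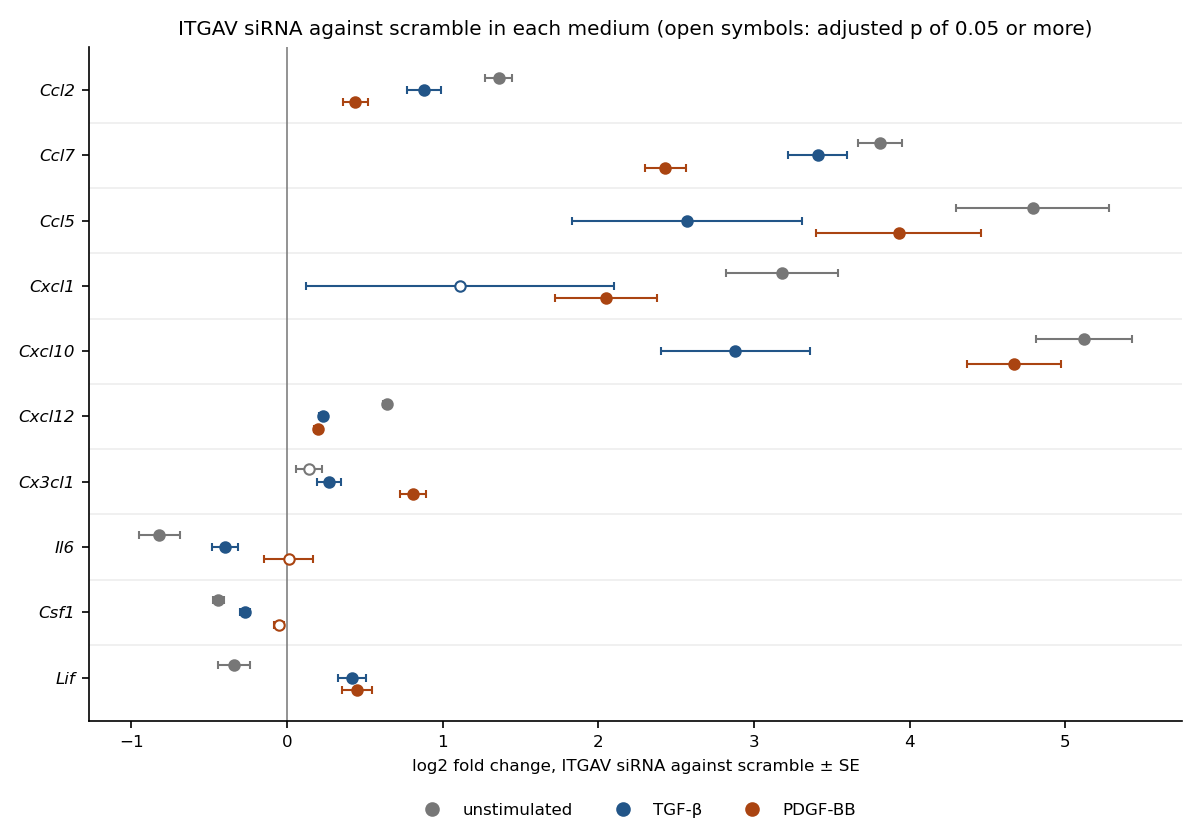
Log2 fold change of Itgav siRNA against scramble with its standard error, in unstimulated (grey), TGF-β (blue) and PDGF-BB (orange) cells. Filled symbols passed an adjusted p of 0.05. Ccl7, Ccl5 and Cxcl10 lie above 2.4 in all 3 media, and Il6 and Csf1 lie at or below 0.01.

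Between media, the siRNA effect under TGF-β differed from that in unstimulated cells for 5 members, 2 in the positive direction (Csf1 and Lif) and 3 in the negative (Ccl2, Cxcl10 and Cxcl12). The shares over all genes tested were 12.2% and 11%. Under PDGF-BB it differed for 7 members, 4 positive (Cx3cl1, Il6, Csf1 and Lif) and 3 negative (Ccl2, Ccl7 and Cxcl12), beside 9.51% and 9.32% of all genes. These 2 sets of differences share the unstimulated libraries. The count of 5 fell to 3 without unstimulated scramble replicate 2. The called CC and CXC chemokines had a negative difference, and the called cytokines a positive one. Cx3cl1, also a chemokine, was positive, so the signs did not separate chemokines from cytokines. Under TGF-β the calls of Ccl2, Cxcl10 and Csf1 were lost when single libraries were left out. The sizes did not follow the signs. The siRNA effect was smaller in the stimulated medium for those CC and CXC chemokines. It was also smaller for Il6 (-0.82 unstimulated and 0.01 under PDGF-BB) and for Csf1 (-0.44 unstimulated, -0.27 under TGF-β and -0.05 under PDGF-BB). For Cx3cl1 it was larger under PDGF-BB, and for Lif it changed sign.

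The genes of the interferon pathway list rose with the siRNA in all 3 media. Of 14 tested genes all 14 rose with the siRNA in unstimulated cells, the median of the list being 4.07 on the log2 scale, and again under PDGF-BB (median 4.65), while 13 rose under TGF-β (3.21). Over all genes tested the median was 0.01 in each of these comparisons. The shares of all genes called higher were 25.9% unstimulated, 29.4% under PDGF-BB and 24.1% under TGF-β. Of the list, Mx1 passed the low-count filter through siRNA libraries alone, so its place in these counts was given by the siRNA. It stayed at or under 0.277 CPM in every scramble library, below the minimum of 0.519 CPM. Ifit3, an interferon-induced antiviral gene, went from 78 to 3080.3 CPM (5.31 ± 0.19), and Rsad2 rose by 7.19 ± 0.3. TGF-β lowered all 14 in siRNA cells (median -2.33) and 11 of 14 in scramble cells (-1.13), beside 29.6% and 24.8% of all genes. PDGF-BB in scramble cells lowered 7 of the 14, beside 19.2% of all genes, and the others did not pass (median -0.47). The difference of the siRNA effect between PDGF-BB and unstimulated cells had a list median of 0.21, and 0 of the 14 were called. Under TGF-β the siRNA effect was smaller than in unstimulated cells for 8 of the 14, and 11% of all genes had a negative difference that was called. Ifnb1, which encodes interferon β, held 1 count over the 3 unstimulated scramble libraries and 42 over the 3 siRNA libraries, a ratio of 45.2 with a 95% exact interval of 7.67 to 1825 that covers counting error only. Under TGF-β with the siRNA it held 1 count, and under PDGF-BB with the siRNA it held 30. Unstimulated scramble replicate 1 held less Ifit1 (8.66 CPM) than the other libraries of its group (49.8 and 44.7 CPM). Cxcl10 held 10, 5 and 11 counts in the libraries of that group, too few to rank them by it. The part of this list in the chemokine results was not tested.

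NF-κB is a transcription factor known to drive Ccl2, Cxcl1 and Il6. Among the genes of this pathway the siRNA in unstimulated cells raised 10 of 16 and lowered 3, beside 25.9% and 27.5% of all genes. Under TGF-β it raised 4 and lowered 4 (24.1% and 24.3% of all genes, list median -0.03), and under PDGF-BB it raised 8 and lowered 4 (29.4% and 29.9%). With the siRNA in unstimulated cells Vcam1, an adhesion molecule for leukocytes, rose by 2.07 ± 0.048 to 921 CPM, and Relb and Nfkbiz rose by 0.91 ± 0.12 and 0.83 ± 0.084. Ptgs2, which encodes cyclooxygenase 2, fell by 0.97 on the log2 scale. TGF-β in scramble cells lowered 8 of the 16, beside 24.8% of all genes (Vcam1 -0.98 ± 0.048, Icam1 -0.76 ± 0.066, Rela -0.28 ± 0.053) and raised 3, among them Ptgs2 (1.60 ± 0.057), so that Ptgs2 and Vcam1 moved in opposite directions in both comparisons. PDGF-BB in scramble cells raised 3 and lowered 3 of the 16, shares near the 16.9% and 19.2% of all genes, and Vcam1 was higher by 1.43 ± 0.047. In siRNA cells TGF-β lowered 12 of 16 and raised 2, beside 29.6% and 27.9% of all genes. The list median was -0.43 there, beside -0.02 over all genes. Whether the NF-κB genes had a part in the changes of the members was not tested.

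The receptors of Il6 and Lif fell under TGF-β, where these ligands rose. TGF-β in scramble cells lowered Il6ra, the Il6 receptor (-1.90 ± 0.09), the shared chain Il6st (-0.91 ± 0.04), Lifr, the Lif receptor (-1.27 ± 0.14), and Osmr (-0.58 ± 0.072). Of the 9 receptors and scavengers tested, 6 fell and 1 rose, beside 24.8% and 23.4% of all genes. PDGF-BB also lowered 6 and raised 1 (19.2% and 16.9% of all genes), among the lowered Lifr (-1.25 ± 0.14) and the Cxcl12 scavenger Ackr3 (-1.29 ± 0.1). The siRNA raised Lifr in unstimulated cells (1.07 ± 0.12) and under PDGF-BB (1.97 ± 0.13) and lowered Il6st in all 3 media (-0.49, -0.46 and -0.49). Cxcr4, the Cxcl12 receptor, rose with the siRNA under TGF-β from 0.747 to 9.57 CPM (3.66 ± 0.28), and Ackr3 fell there (-1.26 ± 0.099). The chemokine receptors Ccr1, Ccr2, Ccr3, Cxcr2, Cxcr3 and Cx3cr1 did not pass the low-count filter. Of 11 gp130 and STAT3 genes, TGF-β in scramble cells raised 3 (Junb 0.75 ± 0.073) and lowered 3 (Cebpb -1.33 ± 0.17, Cebpd -1.30 ± 0.086), shares near the 23.4% and 24.8% of all genes. The siRNA in unstimulated cells raised 7 and lowered 2 of these 11, beside 25.9% and 27.5%, Stat3 among the lowered (-0.63 ± 0.048).

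Other secreted factors moved in both directions. Of the other chemokines 14 of 31 were tested, and TGF-β in scramble cells raised 4 and lowered 4, shares near the 23.4% and 24.8% of all genes. Ccl17, a chemokine for T cells that carry Ccr4, rose from 0.841 to 20.4 CPM (4.59 ± 0.21), and Cxcl16 rose by 1.82 ± 0.12, while Ccl6 fell by 2.02 on the log2 scale. The siRNA raised 6 and lowered 3 of the 14 in unstimulated cells, beside 25.9% and 27.5% of all genes. Cxcl2, a neutrophil chemokine like Cxcl1, went there from 0 counts to 38 over 3 libraries, at least 13.6-fold higher against a floor of 3 counts over the group. Of the 6 raised genes, Cxcl2, Ccl20 and Ccl8 passed the low-count filter through siRNA libraries alone. No scramble library exceeded 0.154 CPM for Cxcl2 or 0.257 CPM for Ccl20 and Ccl8, under the minimum of 0.519 CPM. The count of 6 thus holds genes that only the siRNA made testable. Of the other cytokines 15 of 26 were tested, and TGF-β in scramble cells raised 2, Il11 (3.09 ± 0.18) and Clcf1 (1.15 ± 0.084), both of the Il6 family, and lowered 7, beside 23.4% and 24.8% of all genes, Kitl among the lowered (-2.15 ± 0.078). The siRNA raised Kitl in all 3 media, by 1.57 ± 0.059 in unstimulated cells. Tnf, Il1a, Il1b, Csf2 and Csf3 did not pass the filter.

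The deposited transcript counts showed a change of form in Cxcl12 under TGF-β. The 3-exon transcript Cxcl12-202 held 90.5% to 90.8% of the gene's count in unstimulated scramble libraries and 81.2% to 83.8% with TGF-β, while the 4-exon Cxcl12-203, which extends to a more distal last exon, went from 7.46% to 7.84% up to 13.5% to 15.2%. With the siRNA under TGF-β the share of Cxcl12-203 was 17.4% to 18%, and under PDGF-BB with the scramble siRNA it was 7.67% to 8.35%. The libraries given TGF-β did not overlap the others. In Csf1 the transcript Csf1-203, whose annotated 3′ end lies upstream of that of the other forms, held 15.2% to 16.8% in unstimulated scramble libraries and 10.1% to 11.7% with the siRNA. With PDGF-BB the shares of Csf1-203 were 19.1% to 19.5% in scramble and 10.8% to 11.8% in siRNA libraries, and with TGF-β they were 12.4% to 13.8% and 10.3% to 11.6%. The share of Csf1-203 was thus lower with the siRNA in each medium, without overlap. Lif-202, which starts upstream of Lif-201 and at whose start the Lif promoter window lies, held 16.4% to 42.1% of the Lif count in unstimulated scramble libraries, 28.4% to 42.5% with TGF-β and 7.42% to 34.5% with PDGF-BB. With the siRNA its shares were 9.08% to 52.6% unstimulated, 56.4% to 80.4% with TGF-β and 20.9% to 52.7% with PDGF-BB, so that only the TGF-β siRNA group lay apart from the unstimulated scramble libraries. These are estimates split between overlapping transcripts, as shares of counts and not of molecules, and they were not tested.

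**Figure D4:**
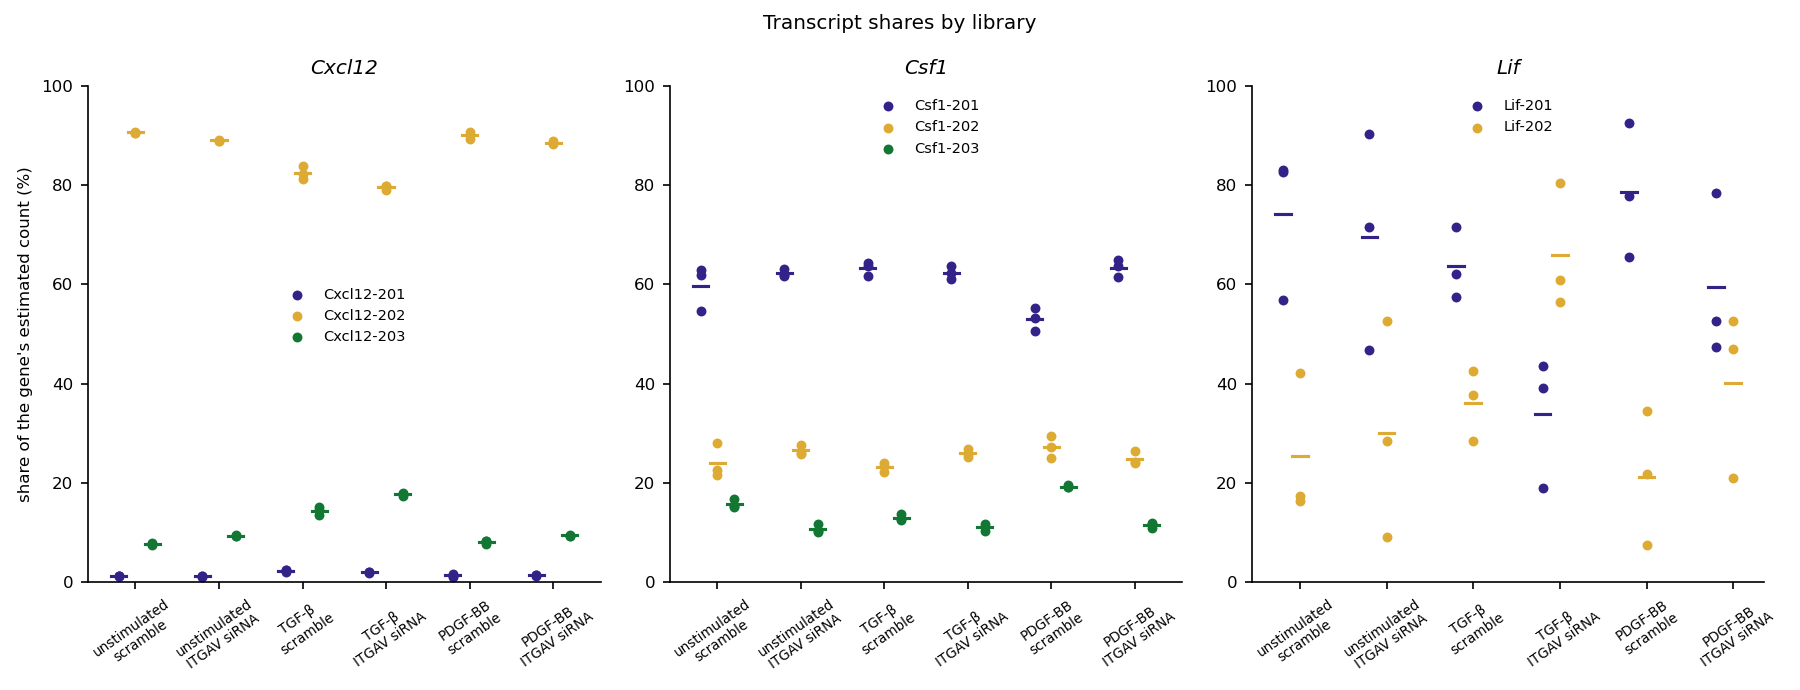
Share of the gene's estimated count (percent) held by each transcript of Cxcl12, Csf1 and Lif, by library (points) with the mean of 3 libraries (short lines). Cxcl12-203 is higher in the 6 TGF-β libraries, between 13.5% and 18%, than in the others, and the Lif shares are widely spread within groups.

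Across the 18 libraries some members varied together and others did not, as a description in which all genes share the same libraries and 6 groups. Pearson's r of log2 CPM was 0.95 for Ccl7 and Cxcl10, 0.93 for Ccl5 and Cxcl10, 0.93 for Ccl2 and Cxcl1 and 0.91 for Cx3cl1 and Lif, whereas it was -0.91 for Ccl2 and Il6. The highest r of Cxcl12 with another member was 0.5 with Csf1, followed by 0.43 with Ccl5, and the next highest of Csf1 was 0.01 with Il6. Among genes that averaged 5 CPM or more, the closest in pattern to Cxcl10 were Rsad2 (0.986), Scara3 (0.984) and H2-Q4 (0.981), and the closest to Ccl7 were Wbp1l (0.985), Vat1 (0.981) and Nudt4 (0.981). For Ccl5 they were Fut10, Pnp and Mx1 (0.956 to 0.96), for Cxcl1 Ly6e, Plekho2 and Tap2 (0.965 to 0.971), and Pamr1 (0.981) and Tspan5 (0.972) were among the closest to Ccl2. Il6 was closest to P4ha1 (0.994), Col11a1 (0.992) and Nedd9 (0.991), of which P4ha1 encodes a collagen prolyl hydroxylase and Col11a1 a collagen chain. Cx3cl1 was closest to Specc1, Rab31 and Bmper (0.972 to 0.983), Lif to Slc29a1, Iqgap1 and Eif2ak3 (0.972 to 0.973), Csf1 to Limch1, Slc24a3 and Ehbp1 (0.97 to 0.974), and Cxcl12 to Fgfr2, Npr3 and Adamts2 (0.948 to 0.967).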

How the data were processed

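Smooth muscle cell RNA of 18 libraries was sequenced in 6 groups of 3. Per the submitters' processing notes, HISAT2 2.2.1, StringTie 2.1.6 and the mm10 build were used. The authors deposited estimated counts per gene (57180) and per transcript (149132), of which 76.2% of the gene values above 0 were whole. No row lacked a gene identifier, and 6 columns of group means were not used. The gene counts were rounded and all libraries fitted together in edgeR 4.0.16 (TMM factors 0.925 to 1.07, filterByExpr with a minimum count of 10, 12 residual degrees of freedom in its quasi-likelihood tests). Tested genes held at least 99.91% of each library's counts, and the biological coefficient of variation was 6.01%. Standard errors are the log2 fold change divided by the square root of F. Intervals of count ratios are exact at 95%. Software was R 4.3.3 with limma 3.58.1, and Python 3.11.15 with scipy 1.17.1, numpy 2.4.6, matplotlib 3.10.9 and pandas 2.3.3.

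The members and the gene lists were chosen with earlier results of these data known. The naming rule gives all 10 members, the 3 genes closest to each by Pearson's r over log2 CPM (prior count 2), and up to 4 called genes per list and comparison with the smallest p. Some genes that the lists or the rule give are not reported here. Genes named outside it (Ccr1 and other receptors at low counts, Tnf, Il1a, Il1b, Csf2, Csf3, Art3, Cxcl2, Ifit1 in a single library, and a few list members) were chosen after their values were seen. Alternatives were DESeq2 1.42.0, its size factors within edgeR, no filter, a filter at a mean of 1 CPM, a replicate block, only the groups compared, summed transcript counts, and leaving out each library. The fit was tested on simulated data. Coordinates are from GENCODE M21 on GRCm38, and promoters from RefSeq.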

Additional observations from a re-analysis of the deposited data

Results flagged for a closer look

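The effect of Itgav siRNA differed between media, by an interaction test in edgeR, for 12 combinations of member and medium. Each value is the siRNA effect in the stimulated medium minus that in unstimulated cells, on the log2 scale, over 3 libraries a group. Under TGF-β the difference was -0.48 for Ccl2, -2.23 for Cxcl10, -0.42 for Cxcl12, 0.16 for Csf1 and 0.77 for Lif. Of these, the values of Ccl2, Cxcl10 and Csf1 lose their call when single libraries are left out, and those of Cxcl12 and Lif do not. Under PDGF-BB the difference was -0.92 for Ccl2, -1.38 for Ccl7, -0.44 for Cxcl12, 0.67 for Cx3cl1, 0.83 for Il6, 0.39 for Csf1 and 0.79 for Lif, and each of these 7 kept its call in every alternative run. Both sets use the same unstimulated libraries.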

How the results depend on the processing

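Of 1194 alternative values for members and comparisons, 1158 kept their direction and their side of the threshold, 27 lost a call, 9 gained one, and no called value changed sign. With a single library left out, the number of members called for PDGF-BB in Itgav siRNA cells ranged from 4 to 7 (7 with all libraries), and the number whose siRNA effect under TGF-β differed from that in unstimulated cells from 3 to 5 (5 with all libraries). The other counts stayed within 1.5 times their value. Fewer samples enter those fits, and the cause of each lost call was not tested further. With DESeq2's size factors group means of the members moved by at most 0.69%, and with summed transcript counts by at most 0.0011%. The 3 levels that moved by more than 1 SD were those of Cxcl12, at 3573, 5571 and 4373 CPM.

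A replicate block left all 90 member calls on their side of the threshold (7 members called for TGF-β in scramble cells and 5 for PDGF-BB in scramble cells, as without it). The correlation of deviations between same-numbered libraries ran from -0.27 to 0.39 with a median of 0.06 over 45 pairs, against a median of -0.018 for other numbers. Since 17 of the 45 were over 0.1 and not all, the numbers were not taken to pair the libraries. As a hint from the data, 9 of 18 libraries correlated best with their own number. Depth limited Ccl5, Cxcl1 and Cxcl10 in scramble cells, where the count over 3 libraries was between 3 and 52.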
